A study of Mus musculus with 6 samples.

Results

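*Itgad* encodes integrin alpha-D (CD11d), 1 of the 4 alpha chains that pair with the beta-2 chain encoded by *Itgb2*. It was examined together with 9 related genes, namely the alpha chains *Itgal*, *Itgam*, *Itgax*, *Itga4* and *Itga9*, the beta chains *Itgb2*, *Itgb1* and *Itgb7*, and *Icam1*, a ligand of the beta-2 integrins. The 10 genes are 10 of the 49315 genes listed. *Itgad* was picked from these libraries after its pattern had been seen, so its values are a description and carry no test, whereas the other 9 genes entered as members of the family. RNA was sequenced from F4/80-positive liver cells of 3 WT and 3 *Lpcat3* KOMac mice, with 1 library per mouse. All 6 mice carried floxed *Lpcat3* alleles (*Lpcat3* fl/fl), were on a C57BL/6N background and, from 8 to 12 weeks of age, received a high-fat diet with 60% fat for 16 weeks. *Lpcat3* KOMac mice also carried 1 LysM Cre allele (LysM Cre/+), which drives recombination in myeloid cells from the *Lyz2* gene, and WT mice were littermates without Cre (LysM +/+). The methods name male and female mice and the sample descriptions do not give the sex of each mouse.

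Integrins are cell-surface receptors made of 1 alpha and 1 beta chain, and an alpha chain reaches the surface only with its partner. The beta-2 family is restricted to leukocytes: *Itgal* with *Itgb2* forms LFA-1, the receptor of ICAM proteins in leukocyte arrest, *Itgam* with *Itgb2* forms the complement receptor Mac-1, and *Itgax* with *Itgb2* forms CD11c/CD18, a marker of dendritic cells and of macrophages in obese tissue. Integrin alpha-D binds ICAM and VCAM ligands and has been described on tissue macrophages, such as those of the splenic red pulp. *Itga4* pairs with *Itgb1* or *Itgb7* in the receptors of VCAM-1 and MAdCAM-1, and *Itga9* pairs with *Itgb1*.

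*Itgad* (ENSMUSG00000070369) lies on chr7:128154376-128223816 of GRCm38, plus strand, in a row with *Itgam* (ENSMUSG00000030786, chr7:128062640-128118491) and *Itgax* (ENSMUSG00000030789, chr7:128129547-128150657), whose end is 3.72 kb from its start. *Itgal* (ENSMUSG00000030830, chr7:127296260-127335138) is on the same strand of the same chromosome. The coding sequences of *Itgad* and *Itgax* were identical at 72.4% of 3450 aligned bases, those of *Itgad* and *Itgam* at 64.6% of 3439, and those of *Itgad* and *Itgal* at 57% of 3270. The longest exact match of *Itgad* and *Itgax* coding sequence ran over 188 bases, and it is shown because reads inside it cannot be assigned to 1 of these neighbours. It covers bases 1324 to 1511 of the 3606 coding bases of *Itgad*, in exons 12 to 14 of 31 (chr7:128189340-128189789, introns included), and bases 1201 to 1388 of the 3507 coding bases of *Itgax*, in exons 11 to 13 of 30 (chr7:128135612-128136062). Capitals mark the exact match and lower case the 15 bases on either side. Over the whole window 216 of 218 bases matched.
Itgad: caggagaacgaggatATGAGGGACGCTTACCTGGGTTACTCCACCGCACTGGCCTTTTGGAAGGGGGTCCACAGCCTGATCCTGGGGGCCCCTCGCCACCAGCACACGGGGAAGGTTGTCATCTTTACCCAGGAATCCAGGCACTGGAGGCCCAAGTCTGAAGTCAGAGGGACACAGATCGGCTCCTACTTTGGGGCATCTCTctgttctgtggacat
Itgax: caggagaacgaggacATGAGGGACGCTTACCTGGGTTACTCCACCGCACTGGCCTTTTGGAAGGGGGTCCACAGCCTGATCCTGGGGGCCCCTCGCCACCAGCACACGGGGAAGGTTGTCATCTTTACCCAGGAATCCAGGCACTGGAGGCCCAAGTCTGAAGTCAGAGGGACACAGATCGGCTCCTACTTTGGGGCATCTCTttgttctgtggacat

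The match with *Itgam* was far shorter. Its 16 bases in capitals lie in exon 6 of both genes (chr7:128181723-128181738 in *Itgad* and chr7:128076065-128076080 in *Itgam*), in the part that encodes the start of the ligand-binding I domain of these chains.
Itgad: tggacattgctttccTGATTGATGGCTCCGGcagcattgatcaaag
Itgam: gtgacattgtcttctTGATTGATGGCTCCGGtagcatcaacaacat

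Of all 50-base windows of *Itgad* transcripts, 384 of 4555 (8.43%) also occurred in *Itgax*, and of all 100-base windows 146 of 4605 (3.17%). None of the 6609 50-base windows of *Itgal* occurred in another gene. *Itgad* also shares exonic bases with *4931431B13Rik* (388 bases, opposite strand, never above 73 counts in a library), with the processed pseudogene *Gm17831* (330 bases, same strand, at most 1 count) and with *Cox6a2* (70 bases, opposite strand, at most 48 counts). The strand setting, the read length and the handling of reads that match several genes are not given in the sources used here, so reads of these overlaps cannot be told apart.

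Total counts per library lay between 44954224 and 71392812. All 8 Kupffer cell markers examined were detected in every library, with summed levels between 19900 and 33200 CPM (counts scaled for library size and composition by TMM). Hepatocyte transcripts (*Alb*, *Apoa1*, *Ttr*, *Trf* and *Cyp2e1*) summed to 22200 CPM in WT 1 and 14000 CPM in *Lpcat3* KOMac 2 as compared with 2060 to 5170 CPM in the other 4 libraries, so these libraries stood apart and results that change without them are given below. The targeted gene *Lpcat3* was at 85, 66.2 and 61.2 CPM in WT 1 to 3 and at 19.5, 33.3 and 19.4 CPM in *Lpcat3* KOMac 1 to 3. *Lyz2*, which holds the Cre insertion, averaged 6210 ± 1480 CPM in WT and 2320 ± 732 CPM in *Lpcat3* KOMac cells (± SD, n = 3 each). In the comparison of genotypes with edgeR's quasi-likelihood test, 0 of 16134 genes tested (0.0%) had an adjusted p-value under 0.05 (Benjamini-Hochberg), 426 (2.64%) had an unadjusted p-value under 0.05, and DESeq2 called 12. In 1208 genes (7.49%) the 3 *Lpcat3* KOMac libraries lay all above or all below the 3 WT libraries, all above in 369 (2.29%) and all below in 839 (5.2%).

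*Itgad* was scarce, and per exonic length it was the lowest of the 10 genes in all 6 libraries. It had 47, 19 and 23 counts in WT 1 to 3 and 60, 220 and 601 counts in *Lpcat3* KOMac 1 to 3. As levels these were 0.723, 0.379 and 0.503 CPM in WT and 1.03, 4.24 and 12.8 CPM in *Lpcat3* KOMac libraries. *Lpcat3* KOMac 3 was the highest, *Lpcat3* KOMac 2 followed, and *Lpcat3* KOMac 1 lay just above the highest WT library, so that the groups did not overlap while the 3 *Lpcat3* KOMac mice differed widely. The exact Poisson 95% interval, which covers counting error only, was 0.788 to 1.33 CPM in *Lpcat3* KOMac 1 and 0.532 to 0.962 CPM in WT 1, and these overlap. In *Lpcat3* KOMac 2 and 3 it was 3.7 to 4.84 and 11.8 to 13.8 CPM, above all other libraries. The means were 0.535 ± 0.174 CPM in WT and 6.02 ± 6.07 CPM in *Lpcat3* KOMac cells (± SD, n = 3 each), so the SD of the latter was as large as its mean. The fitted log2 fold change (*Lpcat3* KOMac over WT) was 3.48 (standard error, SE, 0.95). It was 2.33 without *Lpcat3* KOMac 3, 4.01 without *Lpcat3* KOMac 1 and 3.96 without both hepatocyte-rich libraries, WT 1 and *Lpcat3* KOMac 2. In such bulk RNA a change in the number of cells that express a gene and a change in RNA per cell cannot be told apart.

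**Figure D1:**
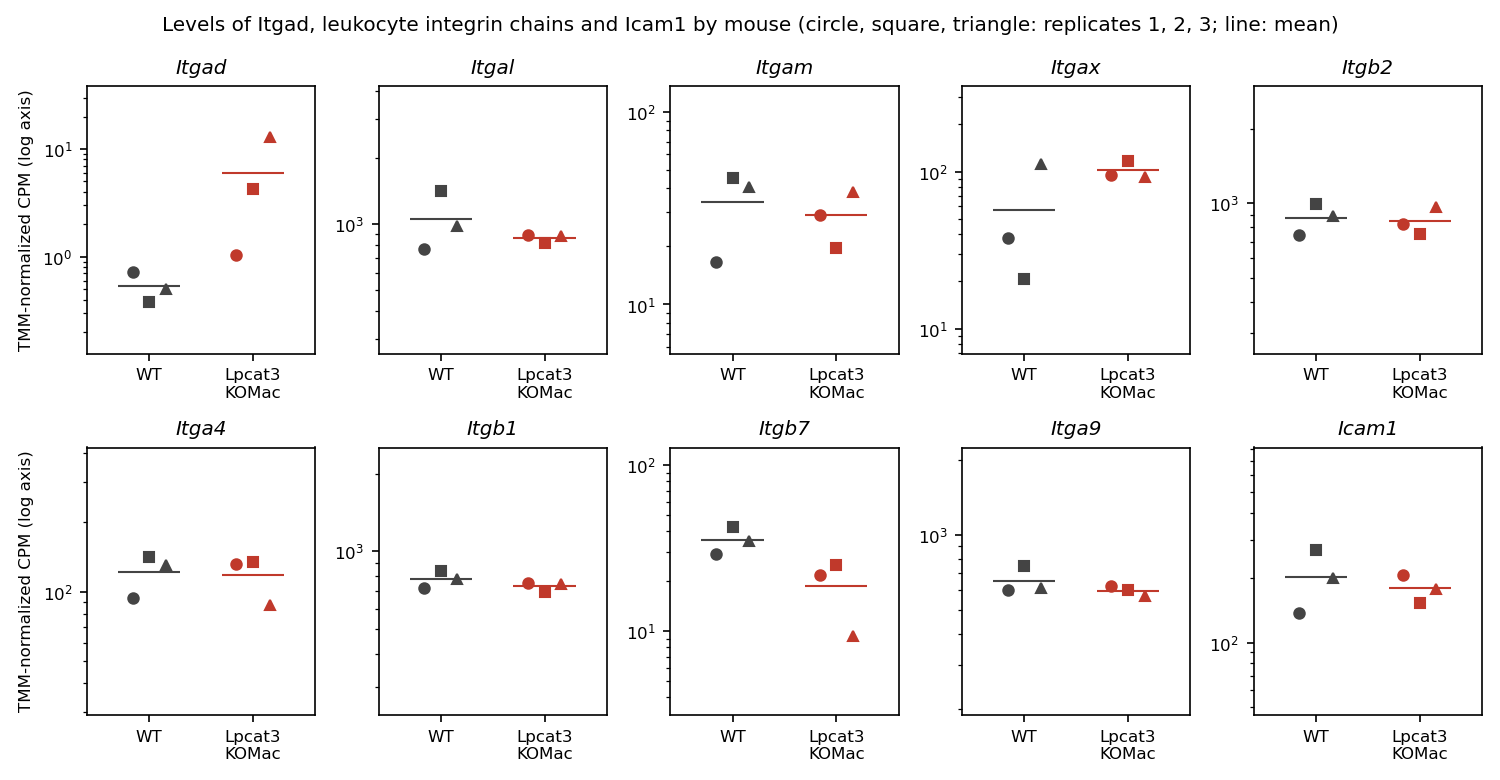
Level of each of the 10 genes in TMM-normalized CPM (log axis, scaled per gene) in the 3 WT (grey) and 3 *Lpcat3* KOMac (red) libraries, with the group mean as a line. *Itgad* was above WT in every *Lpcat3* KOMac library (1.03 to 12.8 as compared with 0.379 to 0.723 CPM), *Itgb7* was below WT in every one (9.35 to 25 as compared with 29.3 to 42.6 CPM), and the groups overlapped for the other 8 genes.

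*Itgax* did not follow the order of *Itgad* over the libraries. In WT 3 *Itgax* had 5083 counts and *Itgad* 23, while in *Lpcat3* KOMac 3 *Itgax* had 4373 counts and *Itgad* 601. Per exonic length, the ratio of *Itgad* to *Itgax* was 0.0204, 0.0194 and 0.00482 in WT 1 to 3 and 0.0116, 0.0386 and 0.146 in *Lpcat3* KOMac 1 to 3, and the groups overlapped. How many reads of the shared stretches were counted to either gene was not tested.

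Levels of different genes were compared as CPM per kb of exonic length. Averaged over the 6 libraries, *Itgb2* was highest at 282, followed by *Itgb1* at 186, *Itgal* at 146, *Itga9* at 81.1, *Icam1* at 43.7, *Itgax* at 16.5, *Itgb7* at 9.89, *Itga4* at 8.58, *Itgam* at 6.29 and *Itgad* at 0.726 CPM per kb. *Itgb2* (243 to 325) lay above *Itgb1* (171 to 206) in every library, and *Itga9* (73.8 to 96.8) above *Icam1* (31.7 to 61.9). The ranges overlapped for *Itgb1* and *Itgal* (117 to 214). They also overlapped among *Itgax* (4.33 to 24.4), *Itgb7* (3.41 to 15.5), *Itga4* (6.24 to 10.1) and *Itgam* (3.32 to 9.01). The order within each of these sets is not firm. *Itgad* ranged from 0.0841 to 2.83 CPM per kb and stayed below the lowest level of every other gene.

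Among the alpha chains that pair with *Itgb2*, *Itgal* accounted for 81 to 94.1% of the summed per-length level in the 6 libraries, *Itgax* for 1.9 to 15.8% and *Itgam* for 2.54 to 4.65%. *Itgad* accounted for 0.125, 0.037 and 0.0617% in WT 1 to 3 and for 0.142, 0.61 and 1.73% in *Lpcat3* KOMac 1 to 3, with means of 0.0744 ± 0.0452% and 0.827 ± 0.816% (± SD, n = 3 each). Even in the library with most *Itgad*, its mRNA was a small part of the pool that shares the beta-2 chain. The summed alpha chains amounted to 0.53, 0.7 and 0.618 of the *Itgb2* level in WT 1 to 3 and to 0.598, 0.629 and 0.519 in *Lpcat3* KOMac 1 to 3, and the groups overlapped. *Itgam* shares 3450 of its 5024 exonic bases with *Gm49368* on the same strand, a gene with at most 9 counts. Divided by its 1574 unshared bases only, the share of *Itgam* was 7.68 to 13.5%, and that of *Itgad* 0.034 to 0.118% in WT and 0.131 to 1.57% in *Lpcat3* KOMac libraries.

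**Figure D2:**
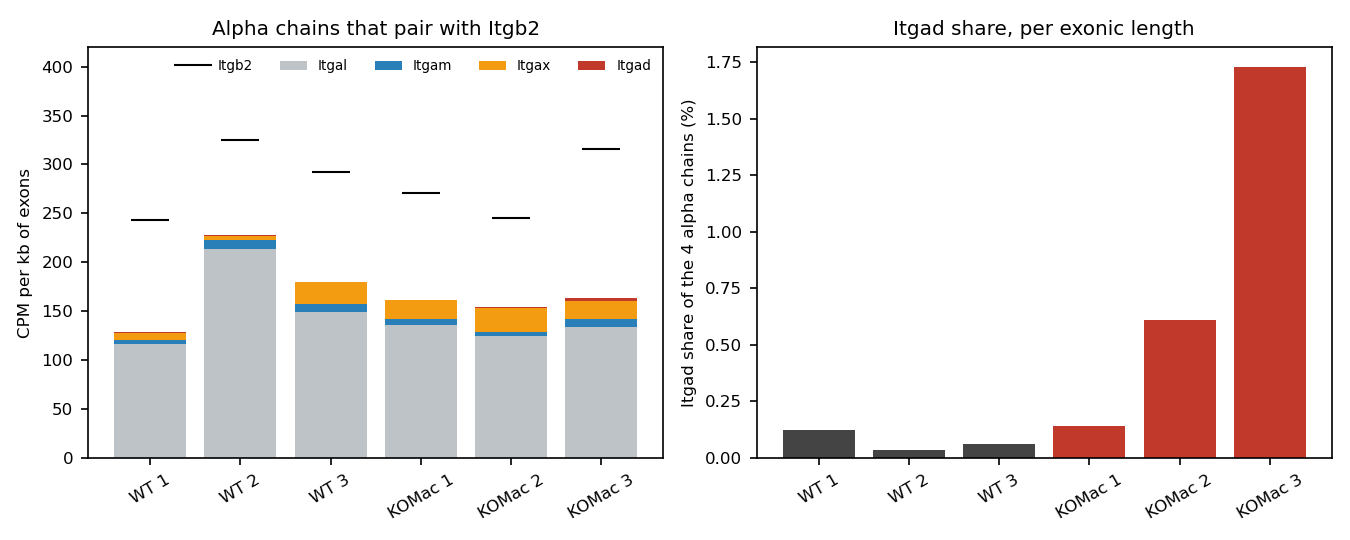
Left, stacked per-length levels (CPM per kb of exons) of the alpha chains *Itgal*, *Itgam*, *Itgax* and *Itgad* in each library, with *Itgb2* as a black line. Right, *Itgad* as a percentage of the 4 alpha chains, from 0.037 to 0.125% in WT (grey) and from 0.142 to 1.73% in *Lpcat3* KOMac (red, KOMac on the axis) libraries. *Itgal* made up most of every bar.

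None of the 9 genes beside *Itgad* passed the test. The targeted gene *Lpcat3* (log2 fold change -1.56, SE 0.26) did not pass it in edgeR either. Lack of a call therefore does not mean that a gene was unchanged. At an adjusted p-value under 0.05 the count was 0 of 9, and at an unadjusted p-value under 0.05 it was also 0 of 9 (edgeR). DESeq2 and limma-voom also called 0 of 9 at an adjusted p-value under 0.05, and 1 of 9 (*Itgb7*) at an unadjusted one. Their median log2 fold change was -0.13 as compared with -0.04 over all genes tested, and 8 of the 9 values were below 0. In 1 of 9, *Itgb7*, the libraries of the genotypes did not overlap. Each of these genes had an adjusted p-value of 1 in edgeR's quasi-likelihood test.

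Of the beta-2 chains, *Itgal*, the alpha chain of LFA-1, was at 771, 1410 and 981 CPM in WT 1 to 3 and at 893, 820 and 880 CPM in *Lpcat3* KOMac 1 to 3 (log2 fold change -0.28, SE 0.22). WT 1 lay below all *Lpcat3* KOMac libraries and the other WT libraries lay above them, so the highest and the lowest library were both WT. Without WT 1 the log2 fold change was -0.47 (SE 0.17, adjusted p = 0.373 from edgeR). *Itgam*, the alpha chain of Mac-1, was at 16.7, 45.3 and 40.5 CPM in WT and at 29, 19.7 and 38.3 CPM in *Lpcat3* KOMac libraries (log2 fold change -0.24, SE 0.43). It was lowest in WT 1 and *Lpcat3* KOMac 2, the libraries with most hepatocyte transcripts, and its log2 fold change was 0.08 with hepatocyte transcripts as a covariate.

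*Itgax*, the chain known as CD11c, was at 37.8, 20.8 and 111 CPM in WT 1 to 3 and at 95, 117 and 92.9 CPM in *Lpcat3* KOMac 1 to 3. WT 3 was as high as the *Lpcat3* KOMac libraries, which lay close together, and WT 1 and 2 were lower. The log2 fold change was 0.85 (SE 0.62), and it was 1.79 (SE 0.3, adjusted p = 0.996 from edgeR) without WT 3. The mean was 102 ± 13.4 CPM in *Lpcat3* KOMac and 56.6 ± 48 CPM in WT cells (± SD, n = 3 each). Lipid-associated macrophage markers, which are often found with CD11c in fatty liver, were set beside it. The 7 markers summed to 806, 576 and 1190 CPM in WT and to 1400, 1130 and 1370 CPM in *Lpcat3* KOMac libraries. These sums overlapped. In both *Itgax* and the sum, WT 2 was lowest, WT 1 was next and WT 3 lay among the *Lpcat3* KOMac libraries. Within the *Lpcat3* KOMac libraries the order differed, since *Lpcat3* KOMac 2 had the most *Itgax* and the lowest sum. All 7 markers had a positive log2 fold change, with a median of 0.71 as compared with -0.04 over all genes tested. Of the markers, *Gpnmb* and *Mmp12* were higher in every *Lpcat3* KOMac than in every WT library (2 of 7, beside 2.29% of all genes tested), and 0 of 7 had an unadjusted p-value under 0.05. The part of such cells in the *Itgax* values was not tested.

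*Itgb2* (ENSMUSG00000000290, chr10:77530252-77565708), the shared beta-2 chain, was the steadiest of the leukocyte-restricted chains, with 741, 992 and 892 CPM in WT and 826, 748 and 963 CPM in *Lpcat3* KOMac libraries (log2 fold change -0.05, SE 0.15). Its sign turned to 0.04 with scaling by total counts alone, so no direction was seen. *Icam1* (ENSMUSG00000037405, chr9:21015985-21028817), the ligand, was at 138, 270 and 199 CPM in WT and at 206, 153 and 178 CPM in *Lpcat3* KOMac libraries (log2 fold change -0.18, SE 0.26), and the highest and the lowest library were both WT. The ratio of *Icam1* to *Itgal* per length stayed between 0.27 and 0.348 in the 6 libraries.

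*Itgb7* (ENSMUSG00000001281, chr15:102215995-102231935), the beta chain of the gut-homing receptor alpha-4 beta-7, was the gene with the lowest fold change of the 10. It was at 29.3, 42.6 and 34.7 CPM in WT 1 to 3 and at 21.8, 25 and 9.35 CPM in *Lpcat3* KOMac 1 to 3. Every *Lpcat3* KOMac library lay below every WT library, and *Lpcat3* KOMac 3 was far below the rest (two-sided exact permutation p = 0.1, the lowest possible with 3 mice per genotype). The means were 35.5 ± 6.67 and 18.7 ± 8.26 CPM (SD, n = 3 each), and the log2 fold change was -0.92 (SE 0.38, adjusted p = 1 from edgeR). It was -0.57 without *Lpcat3* KOMac 3 and -1.17 without *Lpcat3* KOMac 2, and -1.02 with the replicate number as a block. The share of all genes tested in which every *Lpcat3* KOMac library lay below WT was 5.2%, beside this 1 of 9.

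*Itga4* (ENSMUSG00000027009, chr2:79255426-79333123), an alpha partner of *Itgb7* and of *Itgb1*, was at 93.9, 141 and 131 CPM in WT and at 132, 134 and 87.3 CPM in *Lpcat3* KOMac libraries (log2 fold change -0.05, SE 0.23), with no direction, since it was 0.03 with scaling by total counts alone. It shares 1124 exonic bases with *Cerkl* on the opposite strand, a gene with at most 194 counts. *Itgb1* (ENSMUSG00000025809, chr8:128685654-128733200), the common beta-1 chain, was at 725, 841 and 782 CPM in WT and at 753, 699 and 746 CPM in *Lpcat3* KOMac libraries, the smallest spread of the 10 genes (log2 fold change -0.09, SE 0.09). *Itga9* (ENSMUSG00000039115, chr9:118606690-118901003), an alpha chain that binds tenascin and osteopontin, was at 600, 745 and 610 CPM in WT and at 623, 597 and 567 CPM in *Lpcat3* KOMac libraries (log2 fold change -0.13, SE 0.11). Per length *Itga9* was 8.09 to 11.8 times the level of *Itga4*. The ratio of *Itgb1* to *Itgb7*, the competing partners of *Itga4*, was 16.6, 13.3 and 15.2 in WT 1 to 3 and 23.2, 18.8 and 53.7 in *Lpcat3* KOMac 1 to 3, so that *Itgb1* exceeded *Itgb7* in all libraries and most in *Lpcat3* KOMac 3.

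Leaving out WT 1 changed the number of genes whose libraries did not overlap more than leaving out any other single library. Without it *Itgal*, *Itgam*, *Itgb1* and *Itgb7* (4 of 9) were lower in every *Lpcat3* KOMac library. In that setting 2506 of 16134 genes tested were lower in every one, and 32.7% did not overlap in either direction. Without both hepatocyte-rich libraries the same 4 genes did not overlap, beside 41.8% of all genes tested. Without WT 3 the genes were *Itgax* and *Itgb7*, beside 16.4%, and without *Lpcat3* KOMac 1 they were *Itgb7* and *Itga9*, beside 11.3%. *Itgb7* was among them in every setting.

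Among the other genes of the pathway, 66 of 74 listed were tested. Of these 3 had an unadjusted p-value under 0.05, all with a positive log2 fold change and all integrin ligands, beside 2.64% of all genes tested, and 0 had an adjusted p-value under 0.05. In 3 genes every *Lpcat3* KOMac library was above every WT library (*Spp1*, *Thy1* and *Cdh1*) and in 3 every one was below (*Itgb1bp1*, *Tyrobp* and *Zyx*), beside 2.29% and 5.2% of all genes tested. The median log2 fold change was 0.24 for 13 other integrin chains, 0.31 for 16 ligands, -0.07 for 16 genes of integrin activation and -0.04 for 21 genes of outside-in signalling, as compared with -0.04 over all genes tested.

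*Spp1*, which encodes osteopontin, a secreted ligand of alpha-9 beta-1 and alpha-V integrins, was at 11.9, 2.52 and 14.5 CPM in WT 1 to 3 and at 39.4, 44.1 and 18.1 CPM in *Lpcat3* KOMac 1 to 3, where *Lpcat3* KOMac 3 was close to WT 3. Its log2 fold change was 1.81 (SE 0.71, adjusted p = 1 from edgeR) and 1.36 to 2.23 when each library was left out in turn. *Jam2*, a junctional adhesion molecule that binds alpha-4 beta-1, was at 18.1, 10.3 and 14.5 CPM in WT and at 30.3, 33.7 and 16.4 CPM in *Lpcat3* KOMac libraries, and *Lpcat3* KOMac 3 lay below WT 1 (log2 fold change 0.9, SE 0.34). Endothelial cells make *Jam2*, and some markers of sinusoidal endothelial cells were, like it, highest in *Lpcat3* KOMac 1 and 2. *Kdr* was at 68.6, 62.3 and 95.7 CPM in WT and at 169, 131 and 91.5 CPM in *Lpcat3* KOMac libraries. *Ptprb* was at 83.3, 68.2 and 93.6 CPM and at 170, 156 and 90.4 CPM. *Clec4g* and *Lyve1* were also highest in *Lpcat3* KOMac 1 and 2. *Stab2* and *Pecam1* were not, with log2 fold changes of 0.02 for *Stab2* and -0.24 for *Pecam1*. The 6 markers summed to 879 to 998 CPM in WT and to 970 to 1230 CPM in *Lpcat3* KOMac libraries, their median log2 fold change was 0.63, and 2 of 6 (*Kdr* and *Ptprb*) had an unadjusted p-value under 0.05. Their part in the *Jam2* values was not tested. *Cdh1*, which encodes E-cadherin, the ligand of alpha-E beta-7, was low, at 0.785, 0.579 and 0.678 CPM in WT and at 0.93, 1.12 and 1.1 CPM in *Lpcat3* KOMac libraries (log2 fold change 0.62, SE 0.25). For these 3 genes the order of the *Lpcat3* KOMac libraries was not that of *Itgad*. All 3 lost the unadjusted call without *Lpcat3* KOMac 1 and without *Lpcat3* KOMac 2. Without WT 1 there were 15 such genes in the pathway lists, 14 higher and 1 lower (22.4% of 67 tested, beside 12.3% of all genes tested in that setting), among them *Fga*, *Fgb*, *Fgg* and *Vtn*, which hepatocytes make.

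**Figure D3:**
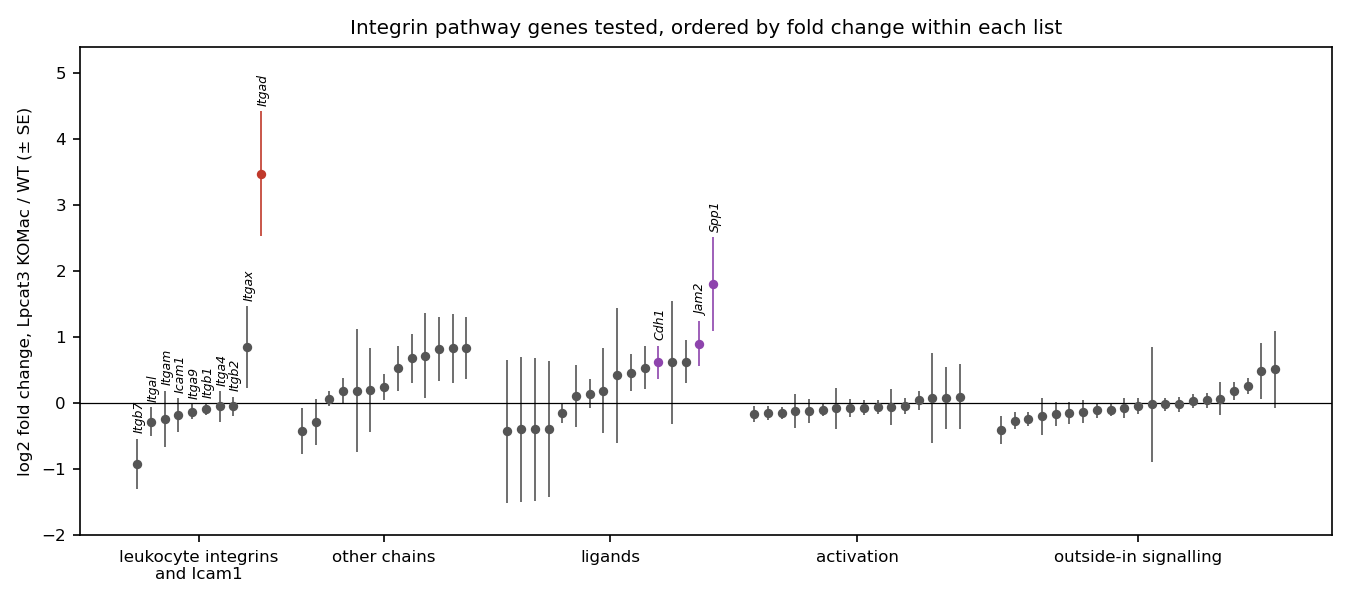
Log2 fold change (*Lpcat3* KOMac over WT) with its standard error for every tested gene of the family and of the 4 pathway lists, ordered within each list. *Itgad* (red, 3.48) lies above all others and was chosen for its pattern. Purple marks *Cdh1*, *Jam2* and *Spp1* (0.62, 0.9 and 1.81), the 3 genes with an unadjusted p-value under 0.05.

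Among the genes with the highest per-length level in each list were *Itgb5* and *Itgav*, the chains of a vitronectin receptor, the fibrinogen chains *Fgg* and *Fga*, the small GTPase gene *Rap1b* and the kindlin gene *Fermt3*, and the signalling gene *Tyrobp*. *Itgb5* averaged 720 ± 11.4 CPM in WT and 755 ± 109 CPM in *Lpcat3* KOMac cells (± SD, n = 3 each), and its mean of 219 CPM per kb was second to that of *Itgb2* among the integrin chains. *Itgav* was at 193 ± 47.5 and 220 ± 20.8 CPM (SD, n = 3 each). *Rap1b* (453 CPM per kb) and *Fermt3* (133 CPM per kb), which switch integrins to the binding state, had log2 fold changes of -0.1 (SE 0.1) for *Rap1b* and -0.07 (SE 0.14) for *Fermt3*. *Tyrobp*, an adaptor of myeloid integrin signalling, was at 735, 853 and 752 CPM in WT and at 661, 610 and 705 CPM in *Lpcat3* KOMac libraries, lower in every one (log2 fold change -0.24, SE 0.1, adjusted p = 1 from edgeR). *Fgg* ranged from 81 to 1050 CPM and *Fga* from 81.9 to 1170 CPM, both highest in WT 1, as hepatocyte transcripts were. *Madcam1*, a ligand of alpha-4 beta-7, had at most 0.0579 CPM in any library.

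The 5 genes whose log2 CPM followed that of *Itgad* most closely over the 6 libraries were *S100a8* (Pearson r = 0.99), *Clec2g* (0.988), *Fcrl5* (0.978), *Ttll11* (0.968) and *Zfp941* (0.968), chosen for this likeness among 16133 genes, of which 37 had r above 0.9. With 6 libraries such values are a description. *S100a8*, a calprotectin subunit gene, was at 0.785, 0.719 and 0.875 CPM in WT and at 0.947, 1.6 and 2.19 CPM in *Lpcat3* KOMac libraries. *Clec2g*, a C-type lectin gene, was at 0.2, 0.0399 and 0.219 CPM in WT and at 0.362, 0.829 and 2.1 CPM in *Lpcat3* KOMac libraries. *Fcrl5*, an Fc receptor-like gene, was at 0.477, 0.339 and 0.459 CPM in WT and at 0.344, 2.58 and 10.9 CPM in *Lpcat3* KOMac libraries, so that its groups overlapped through *Lpcat3* KOMac 1. All 5 were low genes, highest in *Lpcat3* KOMac 3 and next in *Lpcat3* KOMac 2. Within the family r with *Itgad* was 0.5 for *Itgax*, 0.06 for *Itgb2*, -0.07 for *Itgam*, -0.38 for *Icam1*, -0.43 for *Itgal*, -0.52 for *Itgb1*, -0.54 for *Itga4*, -0.65 for *Itga9* and -0.9 for *Itgb7*. *Itgb7* ranked 16065th of the 16133 genes by this measure.

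**Figure D4:**
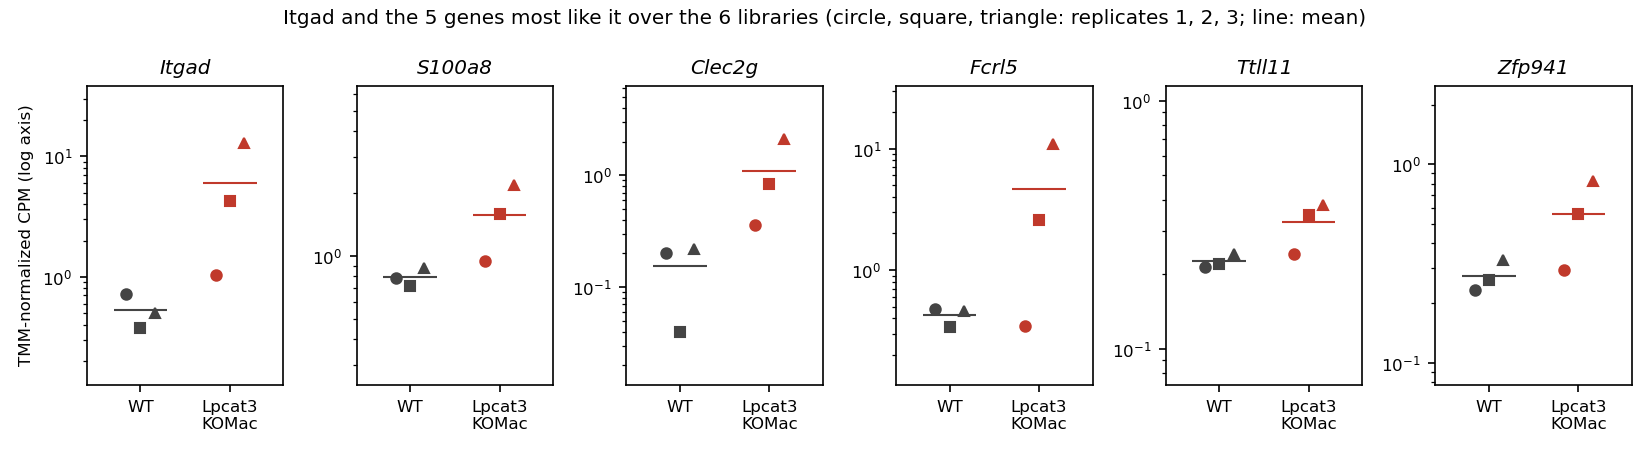
TMM-normalized CPM (log axis, scaled per gene) of *Itgad* and of the 5 genes most like it over the 6 libraries, with group means as lines. In each panel *Lpcat3* KOMac 3 (triangle) is the highest library, at 12.8 CPM for *Itgad* and 10.9 CPM for *Fcrl5*, and *Lpcat3* KOMac 2 (square) is second.

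Markers of other cells were set beside *Itgad*. The 7 neutrophil markers summed to 80.6 to 158 CPM in WT and 79.1 to 142 CPM in *Lpcat3* KOMac libraries, most of it *Csf3r*, which macrophages also express. Several low neutrophil markers were higher in *Lpcat3* KOMac libraries. Besides *S100a8*, *S100a9* was at 0.785, 0.918 and 1.22 CPM in WT and at 1.08, 2.01 and 2.83 CPM in *Lpcat3* KOMac libraries. *Camp*, too low to be tested, had 1, 0 and 0 counts in WT 1 to 3 and 1, 6 and 11 counts in *Lpcat3* KOMac 1 to 3, and *Cxcr2* was at 0.12 to 0.215 CPM in WT and at 0.255 to 0.27 CPM in *Lpcat3* KOMac libraries. *Ly6g*, which defines neutrophils, had 1, 0 and 0 counts in WT and 0, 2 and 3 counts in *Lpcat3* KOMac libraries. *Retnlg* differed from these, at 0.4, 0.319 and 0.853 CPM in WT 1 to 3 and at 2.12, 0.328 and 0.276 CPM in *Lpcat3* KOMac 1 to 3. It was lowest in *Lpcat3* KOMac 3, where *Itgad* was highest. Of the 5 neutrophil markers tested, 2 (*S100a8* and *Cxcr2*) were higher in every *Lpcat3* KOMac library, beside 2.29% of all genes tested. *S100a9*, *Camp* and *Ly6g* were highest in *Lpcat3* KOMac 3 and next in *Lpcat3* KOMac 2, as *Itgad* was, though *Camp* and *Ly6g* rest on few counts. *S100a8* had this order too, but it had been singled out above for its likeness to *Itgad*. *Csf3r*, at 117, 74.7 and 136 CPM in *Lpcat3* KOMac 1 to 3, and *Cxcr2*, at 0.258, 0.27 and 0.255 CPM, did not have it. The 5 platelet and megakaryocyte markers summed to 12.4 to 28.1 CPM in WT and 16.4 to 23.2 CPM in *Lpcat3* KOMac libraries. Of these, *Ppbp*, *Itga2b* and, on few counts, *Gp9* had the order of *Itgad*, while *Pf4* and *Gp1bb* did not. The 6 red pulp macrophage markers summed to 7860 to 12700 CPM in WT and to 7080 to 10300 CPM in *Lpcat3* KOMac libraries, and 0 of 6 were separated by genotype. The 5 B cell markers summed to 15.7 to 29.2 and 21.1 to 21.8 CPM, the 10 T and NK cell markers to 5.03 to 5.93 and 4.84 to 6.72 CPM, and the 7 dendritic cell markers to 22.7 to 62 and 36.1 to 42.5 CPM. Among the T and NK cell markers *Cd3d* and *Klrb1c* were higher in every *Lpcat3* KOMac library (2 of 8 tested, beside 2.29% of all genes tested), at 5 to 13 counts for *Cd3d*, and 1 of 8 (*Cd3d*) had an unadjusted p-value under 0.05. The 7 monocyte markers summed to 179 to 608 and 300 to 515 CPM. Of these *Chil3* and *F13a1* had an unadjusted p-value under 0.05, both with a positive log2 fold change, and *Chil3* was higher in every *Lpcat3* KOMac library (1 of 7), at 2.43 to 8.77 as compared with 1.04 to 2.12 CPM. All these sums overlapped between the genotypes, and their part in the *Itgad* and *Itgb7* values was not tested. All 8 Kupffer cell markers had a negative log2 fold change, with a median of -0.34. *Clec4f* and *Folr2* were lower in every *Lpcat3* KOMac library (2 of 8, beside 5.2% of all genes tested), with log2 fold changes of -0.44 (SE 0.17) for the former and -0.45 (SE 0.16) for the latter.

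Around *Itgad*, 18 protein-coding genes with their whole length within 250 kb of it were listed, *Itgad* included, and 14 of them were tested. The log2 fold changes of the other 13 lay between -0.26 (*Prss36*) and 0.85 (*Itgax*), and their libraries overlapped between the genotypes. *Cox6a2*, a muscle-type cytochrome oxidase subunit gene that lies inside *Itgad* on the opposite strand, was at 0.339, 0.339 and 0.394 CPM in WT and at 0.31, 0.424 and 1.02 CPM in *Lpcat3* KOMac libraries, highest where *Itgad* was highest. It rests on 17 to 48 counts, and the strand setting of the counting is not given in the sources used here. *Rgs10*, a regulator of G protein signalling, was at 79.4 ± 7.5 and 68.2 ± 8.15 CPM (SD, n = 3 each), and *Pycard*, the inflammasome adaptor, at 28.7 ± 6.67 and 29 ± 1.7 CPM (SD, n = 3 each).

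**Figure D5:**
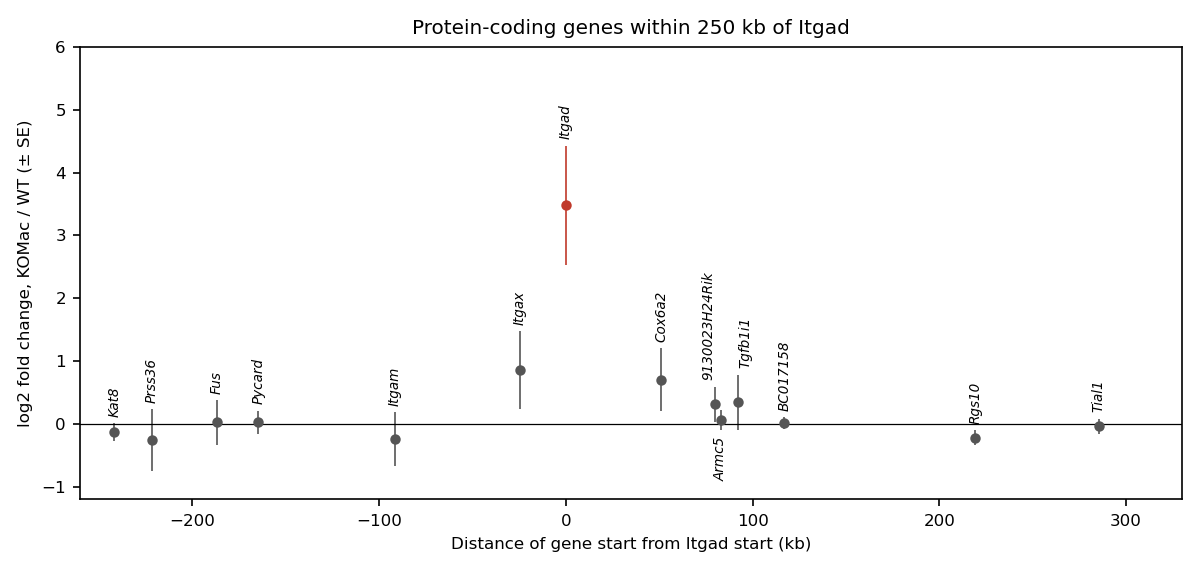
Log2 fold change (*Lpcat3* KOMac over WT, KOMac on the axis) with its standard error for the 14 tested protein-coding genes within 250 kb of *Itgad*, by the distance of their start from that of *Itgad* in kb. *Itgad* (red) is at 3.48, and the others lie between -0.26 and 0.85.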

How the data were processed

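RNA of F4/80-positive liver cells of 3 WT and 3 *Lpcat3* KOMac mice had been sequenced from poly-A selected libraries. The authors deposited raw read counts per Ensembl gene, 1 table per mouse, without normalization. The submitters' processing notes name Trimmomatic 0.36, STAR 2.5.2b, featureCounts of Subread 1.5.2 and GRCm38. Strand, overlap and multi-mapping settings are not given in the sources used here.

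Symbols and coding sequences were taken from GENCODE M21 (49056 of 49315 identifiers found, 44858 with the same start and end). Exonic lengths and the starts and ends of genes were those deposited with the counts. The genotypes were compared in R 4.3.3 with edgeR 4.0.16 (TMM, default filter with minimum count 10, quasi-likelihood test with robust dispersion, genotype as the only term), and p-values were adjusted by Benjamini-Hochberg over 16134 genes. The SE of a log2 fold change is its size over the square root of F. Pearson correlations with *Itgad* used log2 of CPM plus 0.5. Coding sequences were aligned globally with Biopython 1.88. Scripts were tested on simulated data.

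Genotype and replicate number came from the sample labels. The labels do not say whether mice with the same number were paired. Deviations of each library from its genotype mean in log2 CPM were correlated between WT and *Lpcat3* KOMac libraries. The correlations were -0.3614, -0.6713 and 0.3933 for same-numbered libraries. They ranged from -0.6105 to 0.7071 for differently numbered ones. With 3 libraries per genotype these values cannot settle the pairing. The family members, the pathway lists and the marker lists were chosen with earlier results of these data known. Named were all 10 members, pathway genes at an unadjusted p-value under 0.05 or among the 2 highest per length in each list, the 5 genes most like *Itgad*, genes within 250 kb of it or overlapping a member, *Lpcat3*, *Lyz2* and leading markers. *Thy1*, *Itgb1bp1*, *Zyx*, *Fgb*, *Vtn*, *Madcam1* and single markers were named after their values were seen. Alternatives were DESeq2 1.42.0, limma-voom (limma 3.58.1), other size factors, filters, a replicate block, a hepatocyte covariate, a length offset and leaving out each library. Leaving out both hepatocyte-rich libraries, dividing *Itgam* by its unshared bases and counting the 9 genes at an unadjusted p-value were added after seeing the data. A gene that the naming rule selects is not reported here. The lipid, PCR and histology measurements were not analysed here.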

Additional observations from a re-analysis of the deposited data

How the results depend on the processing

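At an adjusted p-value under 0.05, edgeR and limma-voom called 0 genes in every setting, while DESeq2 called 12, and none of the 9 genes beside *Itgad* was called in any setting. At an unadjusted p-value under 0.05 the count among the 9 was 0, and 1 with no low count filter, with DESeq2, with limma-voom, with the replicate block and without both hepatocyte-rich libraries, where the gene was *Itgb7* each time, and 0 to 2 when each library was left out. In the pathway lists the count of 3 (4.55% of those tested, beside 2.64% of all genes tested) became 1 with no low count filter (1.39%, beside 1.89%), 0 with the replicate block (beside 0.855%), 5 with the hepatocyte covariate (7.58%, beside 9.21%) and 12 without both hepatocyte-rich libraries (18.2%, beside 11%). It was 0 to 15 when each library was left out, with 15 without WT 1 (22.4%, beside 12.3%) and 0 without *Lpcat3* KOMac 2 (beside 1.48%). The count of non-overlapping genes was 1, and 1 to 4 when each library was left out, and 4 without both hepatocyte-rich libraries. The replicate block, which pairs mice by number alone, changed no other call among these results, and genes at an unadjusted p-value under 0.05 fell from 426 to 138 with it.

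The difference in the *Itgad* share (0.753 percentage points) was 0.302 to 1.1 when each library was left out and 0.544 from counts not divided by length. The log2 fold changes of *Itgal*, *Itgax*, *Itgb1*, *Itgb7* and *Itga9* kept their sign in 17 of 17 settings. That of *Itgad* did too, but *Itgad* was chosen for its pattern, so this is a description and no support. Reversed values were 0.08 for *Itgam*, 0.02 for *Itgb2* and 0.03 for *Itga4* with the hepatocyte covariate, and 0.04 for *Itgb2* and 0.03 for *Itga4* with total counts alone. With each library left out, they ranged from -0.57 to 0.02 for *Itgam*, -0.15 to 0.05 for *Itgb2*, -0.21 to 0.15 for *Itga4* and -0.39 to 0.09 for *Icam1*. The cause was not tested. *Itgad* rests on 19 to 47 counts per WT library, which limits its fold change.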
